A study of Mus musculus with 6 samples.

Results

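The genes described here are the ligands, receptors, inhibitors, cytoplasmic components, transcription factors and feedback targets of the Wnt pathway, chosen by name from a deposited table of 16217 genes: 47 rows matched, of which 10 encode Wnt ligands. Messenger RNA was measured in Hepa1-6, a mouse hepatoma line, stably transduced with a lentivirus and selected with puromycin. In 3 libraries the virus carried a hairpin against Ero1a (shERO1A), the oxidase of the endoplasmic reticulum that feeds disulfide bonds to protein disulfide isomerases, and in 3 libraries it carried the control hairpin shNC. Both groups therefore share the line, the viral transduction and the puromycin selection. The knockdown libraries are called KD1, KD2 and KD3, as in the deposited table. The labels do not say how many hairpins or lines each group comprises, so loss of Ero1a and other differences between transduced lines cannot be told apart, and nothing in the labels says that libraries of a group came from separate cultures. In bulk RNA, fewer cells with a transcript and less of it per cell cannot be told apart either.

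Wnt proteins are lipid-modified secreted ligands that bind Frizzled receptors together with the co-receptors LRP5 or LRP6. Receptor engagement stops the destruction complex of Axin, APC, casein kinase and GSK3 from marking beta-catenin for degradation, and beta-catenin then acts with TCF/LEF factors on target genes. Several targets, such as Axin2, Rnf43, Znrf3, Nkd1, Notum and Lgr5, feed back on the pathway, and R-spondins acting through LGR receptors protect Frizzled from removal by RNF43 and ZNRF3. In liver the pathway sets the pericentral programme of hepatocytes, and in the intestine it maintains LGR5-positive stem cells.

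Between 38290505 and 39646829 reads per library lay behind the values, counted over the genes of the table. Levels are given in FPKM, reads per length of transcript and per library total, so they can be compared between genes. Genes averaging 1 FPKM or more across all 6 libraries (10296 genes, 32 of the 47 Wnt genes) were tested with limma on log2(FPKM + 1), and a gene was called at a Benjamini-Hochberg adjusted p under 0.05. Log2 fold changes are on this scale unless voom is named, so at low levels they are smaller than the ratio of means implies. Ero1a itself fell to 15.6 ± 0.505 FPKM from 38.6 ± 0.937 FPKM in the controls (SD, n = 3; limma adjusted p = 6.21e-06). Library KD3 stood apart from KD1 and KD2: chi-square per degree of freedom over genes was 63.2 and 48.5 against these, 6.14 between KD1 and KD2, and 4.13 to 4.65 within shNC. Of the hepatocyte markers with values, the transcription factor Hnf4a stood at 41.1 ± 1.12 FPKM in shNC, Rbp4 at 341 ± 5.12, Trf at 43.2 ± 1.76, Apob at 36.2 ± 1.72 and Foxa2 at 24.0 ± 0.307 FPKM. Lower ones in shNC were Afp at 3.10 ± 0.0503, Apoe at 2.02 ± 0.454, Foxa3 at 1.48 ± 0.209 and Apoa2 at 0.980 ± 0.0957 FPKM. Cebpa at 0.611 ± 0.151 and Ambp at 0.177 ± 0.111 FPKM were lower still. Of 30 listed markers of hepatocytes and hepatoma, 17 were in the table and 13 reached a mean of 1 FPKM. The summed level of the 17 was 2930 to 3000 FPKM in shNC and 2340 to 2590 FPKM in shERO1A, most of it from the keratins Krt8 and Krt18. Ambp and Igf2 were listed at 0 in at least 1 library, and albumin, transthyretin and Apoa1 are not analysed here. Of 15 intestinal epithelial markers in the table, 10 reached a mean of 1 FPKM, with the cadherin Cdh17 at 222 ± 1.97 FPKM and the keratin Krt20 at 168 ± 2.51 FPKM in shNC, while Olfm4 at 0.129 ± 0.0388 and Muc2 at 0.0162 ± 0.00786 FPKM were among the 5 below it. The line is called Hepa1-6 here as the labels give it.

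Promoter windows from RefSeq (GRCm38.p6; 250 bases before to 50 after each start) are shown for 4 called genes: Sp5 and Axin2, target genes of TCF/LEF factors that fell together, and Lgr4 and Lgr6, receptors of the same ligands that moved in opposite directions. Capitals mark exact matches to CTTTGAT or CTTTGAA, common TCF/LEF binding sequences, searched on both strands.
Sp5 (chr2:70474673-70474972, plus strand): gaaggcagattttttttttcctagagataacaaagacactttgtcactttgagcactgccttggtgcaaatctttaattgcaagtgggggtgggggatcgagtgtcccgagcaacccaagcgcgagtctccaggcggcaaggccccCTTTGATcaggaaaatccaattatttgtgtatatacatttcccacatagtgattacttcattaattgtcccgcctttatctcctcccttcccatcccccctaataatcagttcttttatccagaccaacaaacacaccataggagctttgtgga
Axin2 (chr11:108920099-108920398, plus strand): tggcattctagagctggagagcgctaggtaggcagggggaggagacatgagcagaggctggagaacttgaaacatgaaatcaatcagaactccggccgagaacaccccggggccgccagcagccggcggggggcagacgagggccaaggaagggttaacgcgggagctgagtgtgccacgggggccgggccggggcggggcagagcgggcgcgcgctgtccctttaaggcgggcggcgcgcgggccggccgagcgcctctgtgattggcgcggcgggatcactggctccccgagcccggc
Lgr4 (chr2:109917397-109917696, plus strand): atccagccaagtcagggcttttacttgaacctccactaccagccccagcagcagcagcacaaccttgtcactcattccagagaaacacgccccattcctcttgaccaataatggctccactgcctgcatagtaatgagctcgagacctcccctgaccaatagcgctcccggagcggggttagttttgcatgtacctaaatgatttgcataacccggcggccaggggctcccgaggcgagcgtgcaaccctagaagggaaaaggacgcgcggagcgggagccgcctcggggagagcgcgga
Lgr6 (chr1:135105227-135105526, minus strand): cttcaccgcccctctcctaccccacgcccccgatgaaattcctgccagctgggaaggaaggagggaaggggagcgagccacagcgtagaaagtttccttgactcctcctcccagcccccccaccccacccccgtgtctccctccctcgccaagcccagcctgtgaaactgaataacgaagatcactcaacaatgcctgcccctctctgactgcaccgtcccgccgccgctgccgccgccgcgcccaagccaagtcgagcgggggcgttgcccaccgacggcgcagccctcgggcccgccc
The Sp5 window held CTTTGAT once, with its first base 104 bases before the start, and the other 3 windows held no match. A window was found for 32 of the 47 Wnt genes and for 6 of the 9 called ones. The 32 genes had 42 windows, of which 3 held a match (in Sp5, Wnt5b and Wnt11). Over all 32851 windows of the table, 8.65% held a match. A match describes the letters of the window and says nothing of binding.

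Of the 32 tested Wnt genes, 9 were called (28.1%), where 17.7% of all tested genes were called. The shERO1A libraries had higher levels of 4 genes (12.5%: Wnt5a, Wnt7b, Fzd1 and Lgr6), where 9.48% of all tested genes were called higher. They had lower levels of 5 genes (15.6%: Lgr5, Lgr4, Rnf43, Axin2 and Sp5), where 8.23% were called lower. The 3 knockdown and 3 control libraries did not overlap in 19 of the 32 (59.4%), against 40.0% of all tested genes. The median log2 fold change of the 32 was -0.02, against 0.01 over all tested genes, and the median size of the change regardless of sign was 0.16, against 0.11. Leaving out single libraries moved these counts: without KD3, 7 genes were called higher and 6 lower (27.7% of all tested genes in either direction), and the lower genes numbered 2 without shNC replicate 1, shNC replicate 2 or KD2, and 3 without shNC replicate 3. In the same runs the count of all genes called lower fell from 847 to 482, 468 and 578, and to 458. Lgr5, Lgr4, Lgr6, Wnt5a and Wnt7b passed in each of the 14 alternatives tried, and the calls of Fzd1, Rnf43, Axin2 and Sp5 depended on single libraries as given with each.

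**Figure D1:**
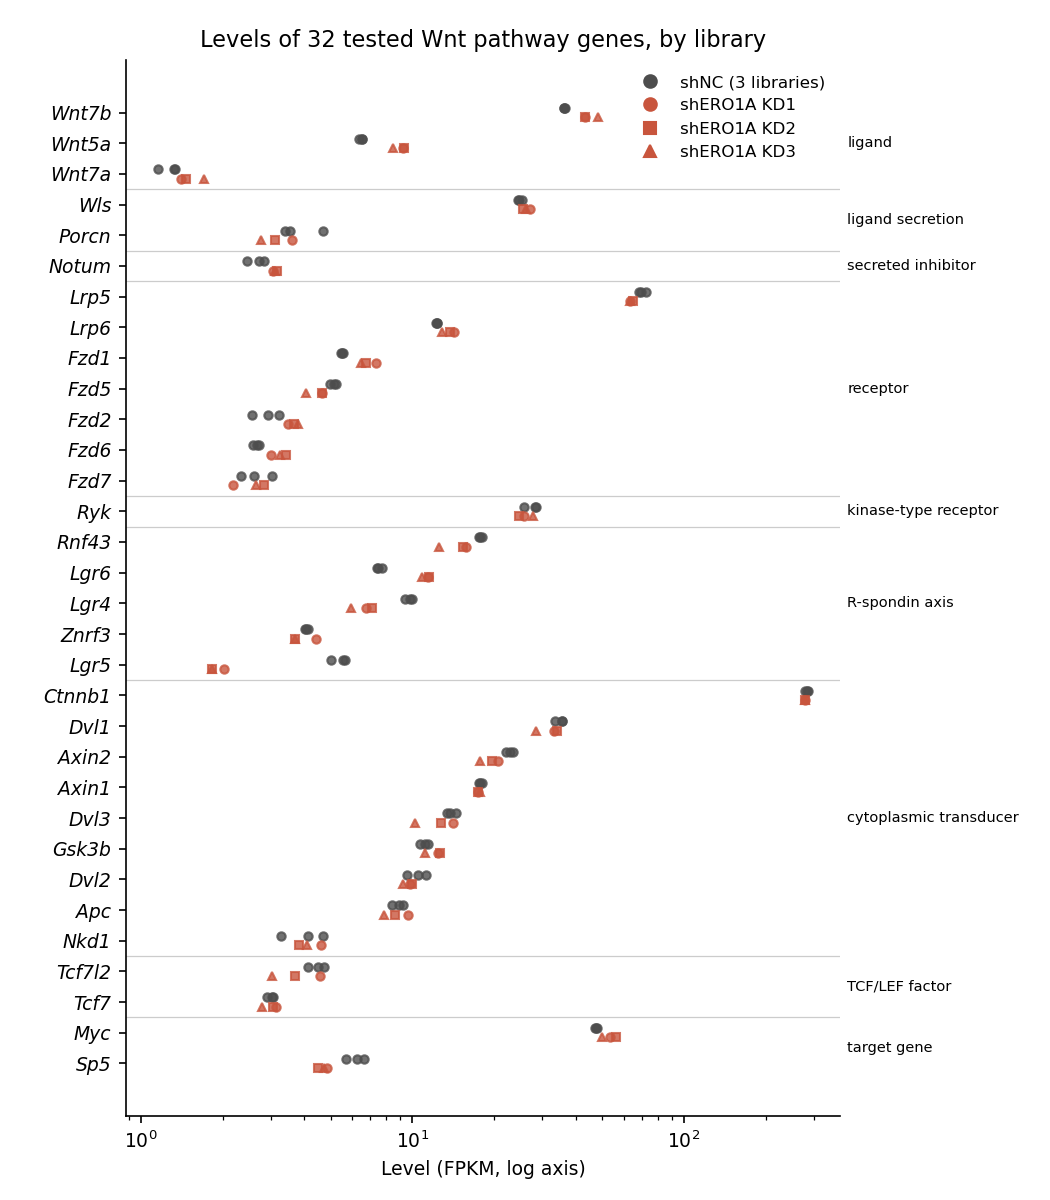
Level of each of the 32 tested genes in each library, in FPKM on a log axis, ordered by role; grey circles are the 3 shNC libraries and red symbols are KD1, KD2 and KD3. Ctnnb1 is the highest at 278 to 285 FPKM, and Wnt7b is the highest ligand at 36.1 to 48.2 FPKM.

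**Figure D2:**
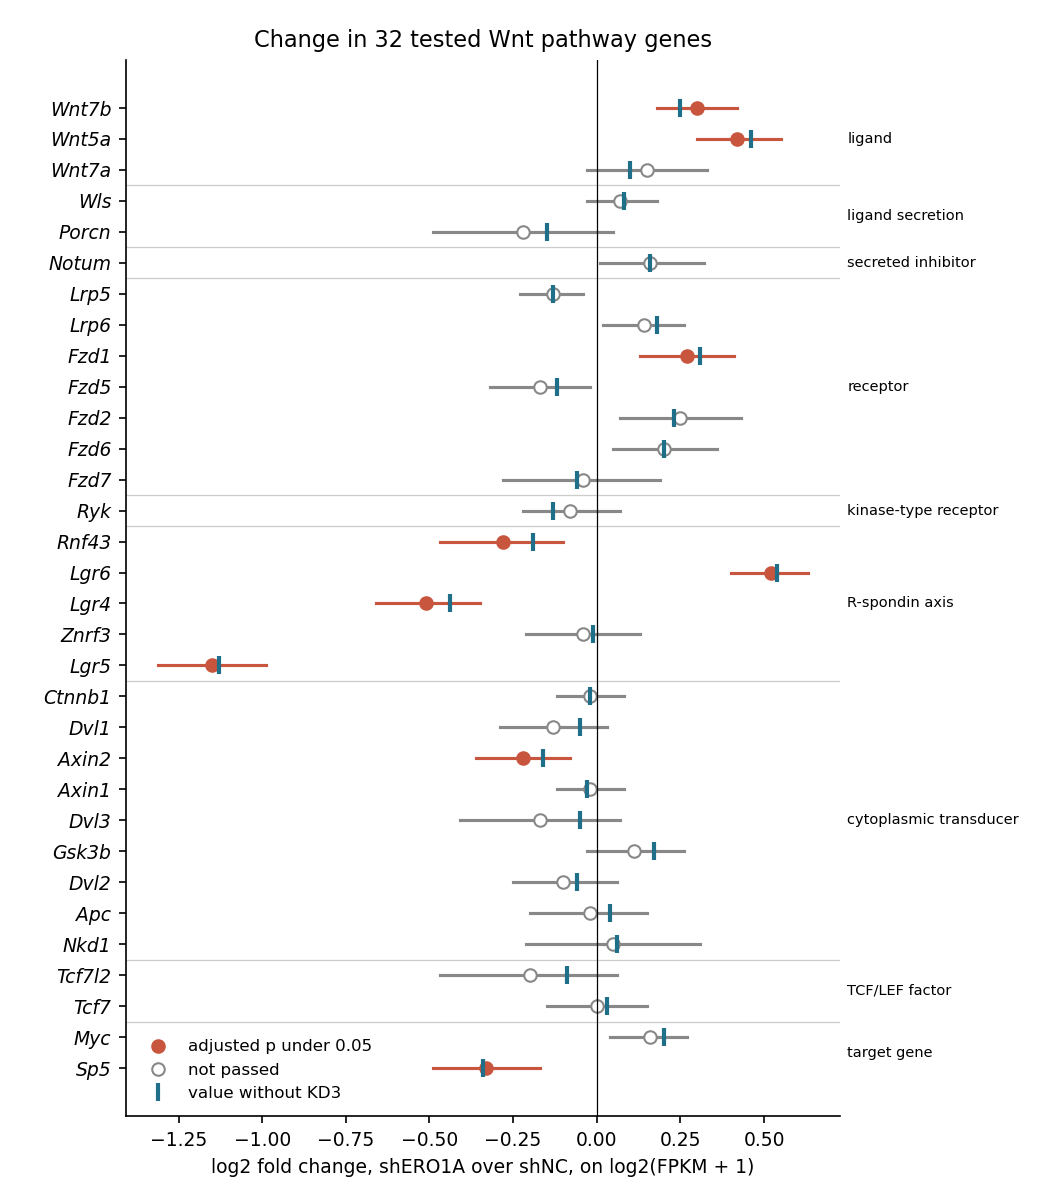
Log2 fold change of shERO1A over shNC on the log2(FPKM + 1) scale with its 95% interval from limma; filled points passed an adjusted p of 0.05, open points did not, and blue ticks give the value without KD3. Lgr5 at -1.15 and Lgr6 at 0.52 lie at the ends of the range.

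Among the ligands, Wnt7b was by far the most abundant and rose with the knockdown. Wnt7b (Entrez 22422) had control values of 36.1, 36.1 and 36.3 FPKM and knockdown values of 43.3, 43.0 and 48.2 FPKM. Every knockdown library was above every control library, and KD3 was the highest. The mean was 36.2 ± 0.0985 FPKM in controls and 44.8 ± 2.94 FPKM in knockdown cells (SD, n = 3), 1.24 times as high (log2 fold change 0.30, SE 0.05, limma adjusted p = 0.00761). Wnt5a (Entrez 22418), the best known ligand of beta-catenin-independent signalling, gave 6.51, 6.36 and 6.49 FPKM with shNC, compared with 9.22, 9.29 and 8.51 FPKM with the knockdown hairpin. The groups were well apart, with KD3 the lowest of its group. Its mean rose from 6.45 ± 0.0825 to 9.01 ± 0.430 FPKM, a ratio of 1.40 (log2 fold change 0.42, SE 0.05, adjusted p = 0.00176).

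The third tested ligand, Wnt7a, a close relative of Wnt7b, ran at 1.16, 1.34 and 1.32 FPKM in control cells, while KD1 to KD3 read 1.41, 1.46 and 1.70 FPKM. The knockdown libraries were all higher, but the difference did not pass (log2 fold change 0.15, 95% interval -0.03 to 0.33, limma adjusted p = 0.242). The other 7 ligands had means under 1 FPKM and were outside the test. Of these, Wnt10a had the most reads, with 56, 56 and 65 among controls against 30, 38 and 17 across KD1 to KD3, or 0.780 ± 0.0696 against 0.374 ± 0.144 FPKM. The control libraries were all above the knockdown libraries. Another filter kept genes at a mean of 10 reads per library in place of 1 FPKM. It called 7.77% of 13015 genes higher and 7.06% lower and, of 38 Wnt genes tested, 5 higher and 4 lower. In that fit the log2 fold change of Wnt10a was -0.38 on the log2(FPKM + 1) scale (limma adjusted p = 0.0245, spanning 0.0191 to 0.0591 across 5 alternatives). With voom on the same genes its log2 fold change was -1.14. Wnt10a was called neither with voom nor in the authors' deposited table (q = 0.0575). Wnt4 (8 to 26 reads per library) and Wnt9a (0 to 18 reads) showed no call with the filter on reads (limma adjusted p = 0.949 and 0.256). Wnt2 had 0, 3 and 0 control reads against 22, 4 and 7 across KD1 to KD3, and Wnt3, Wnt5b and Wnt11 had at most 14 reads in any library. These 4 genes averaged under 10 reads per library and passed neither filter. The summed level of the 10 ligands was 45.0 ± 0.237 FPKM in shNC and 56.2 ± 2.52 FPKM in shERO1A, and Wnt7b supplied 80.4% and 79.7% of it.

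The machinery that makes ligands competent for release did not pass the test. Wls, the carrier that takes Wnt proteins to the cell surface, measured 24.7, 25.3 and 24.5 FPKM across the controls against 27.1, 25.5 and 26.2 FPKM across KD1 to KD3, all above the controls, a log2 difference of 0.07 with a 95% interval from -0.03 to 0.18 (limma adjusted p = 0.281). Porcn, the acyltransferase that attaches the lipid, was at 3.87 ± 0.709 and 3.16 ± 0.412 FPKM with overlapping groups (95% interval -0.49 to 0.05, adjusted p = 0.237). Notum, the secreted enzyme that removes this lipid and a feedback target, had control values of 2.84, 2.45 and 2.73 FPKM and knockdown values of 3.06, 3.16 and 3.12 FPKM. The groups did not overlap, but the difference did not pass (log2 fold change 0.16, 95% interval 0.01 to 0.32, adjusted p = 0.136). Dkk2, which binds the LRP co-receptors, had 6, 1 and 4 reads in shNC and 0 in each knockdown library, where a count of 0 allows up to 3 reads. Sfrp genes, Wif1, Nkd2 and Ror2 are not analysed here.

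Of the 5 Frizzled receptors tested, Fzd1 passed, where 17.7% of all tested genes were called. Fzd1 (Entrez 14362), the most abundant of them, gave 5.44, 5.53 and 5.50 FPKM with shNC, compared with 7.34, 6.75 and 6.45 FPKM with the knockdown hairpin. All knockdown libraries were higher than all control libraries. The mean rose from 5.49 ± 0.0472 to 6.84 ± 0.450 FPKM (SD, n = 3), a log2 fold change of 0.27 (SE 0.06, limma adjusted p = 0.0197). Its call was lost when shNC replicate 1, 2 or 3 was dropped (adjusted p of 0.0781, 0.0732 and 0.0753), and when KD1 (0.0503) or KD2 (0.0567) was, spanning 0.00477 to 0.0781 across the alternatives. Fzd2 and Fzd6 were higher in each knockdown library than in any control library without passing, at 2.91 ± 0.330 against 3.64 ± 0.161 FPKM (adjusted p = 0.0672) and 2.66 ± 0.0715 against 3.22 ± 0.217 FPKM (adjusted p = 0.0715). Fzd5, the next most abundant in shNC, was lower in each knockdown library, at 5.12 ± 0.141 against 4.45 ± 0.344 FPKM, also without passing (adjusted p = 0.124). Fzd7 overlapped between the groups (2.66 ± 0.363 and 2.56 ± 0.337 FPKM). The summed level of the 8 Frizzled genes was 19.3 ± 0.414 FPKM in shNC and 21.1 ± 0.530 FPKM in shERO1A, with Fzd1 at 28.5% and 32.4% of it and Fzd5 at 26.6% and 21.0%. Fzd4 was at 0.271 to 0.407 FPKM, and Fzd3 and Fzd9 had 0 to 17 reads per library.

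The co-receptor genes leaned opposite ways without a call. Lrp5, the more abundant, ran at 69.2, 68.5 and 72.3 FPKM in control cells, while KD1 to KD3 read 63.5, 64.6 and 63.1 FPKM, which all lay below the controls (log2 fold change -0.13, limma adjusted p = 0.0658). Lrp6 measured 12.2, 12.3 and 12.3 FPKM across the controls against 14.2, 13.8 and 12.8 FPKM across KD1 to KD3, which all lay above (log2 fold change 0.14, adjusted p = 0.108). Without KD3 the limma adjusted p was 0.0248 for Lrp5 and 0.0134 for Lrp6, spanning 0.0248 to 0.248 and 0.0134 to 0.251 across the alternatives. Lrp5 was also called with voom (adjusted p = 0.0382), with median-centred libraries (0.0487) and in the authors' deposited table (q = 0.0384). Of the kinase-type Wnt receptors, Ryk overlapped between the groups at 27.6 ± 1.51 and 26.1 ± 1.70 FPKM (adjusted p = 0.433), and Ror1 was at 0.518 to 0.780 FPKM in the 6 libraries.

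The R-spondin axis held the largest changes among the Wnt genes tested, and its 3 receptors did not move together. Lgr5 (Entrez 14160), the stem cell marker of the intestinal crypt and a Wnt target, had control values of 5.03, 5.57 and 5.62 FPKM and knockdown values of 2.02, 1.82 and 1.82 FPKM. The knockdown libraries lay close together and far below the controls. On average it fell to 1.89 ± 0.117 FPKM from 5.41 ± 0.330 FPKM (SD, n = 3), or to 34.9% of control. Its log2 fold change was -1.15 on the log2(FPKM + 1) scale (SE 0.07, limma adjusted p = 5.31e-05) and -1.53 with voom. Lgr4 (Entrez 107515), which binds the same ligands, gave 9.82, 10 and 9.42 FPKM with shNC, compared with 6.74, 7.08 and 5.96 FPKM with the knockdown hairpin, with KD3 the lowest. Its mean fell from 9.76 ± 0.314 to 6.60 ± 0.575 FPKM (log2 fold change -0.51, SE 0.07, adjusted p = 0.00213). Lgr6 (Entrez 329252), the third R-spondin receptor, went the other way, from 7.40, 7.47 and 7.75 FPKM in shNC to 11.4, 11.5 and 10.8 FPKM in the knockdown libraries. No library crossed between the groups, and the mean rose from 7.54 ± 0.189 to 11.2 ± 0.371 FPKM (log2 fold change 0.52, SE 0.05, adjusted p = 0.000529).

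Added up, Lgr4, Lgr5 and Lgr6 came to 22.2, 23.1 and 22.8 FPKM in shNC and to 20.1, 20.4 and 18.6 FPKM in KD1, KD2 and KD3. The composition shifted more than the sum: Lgr6 supplied 33.2 ± 0.833% of it in shNC and 57.0 ± 0.995% in shERO1A, while Lgr5 went from 23.8 ± 1.07% to 9.60 ± 0.589% and Lgr4 from 43.0 ± 1.47% to 33.4 ± 1.31% (SD, n = 3). In shNC Lgr4 was the most abundant of the 3 receptors in each library, and in shERO1A Lgr6 was.

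**Figure D3:**
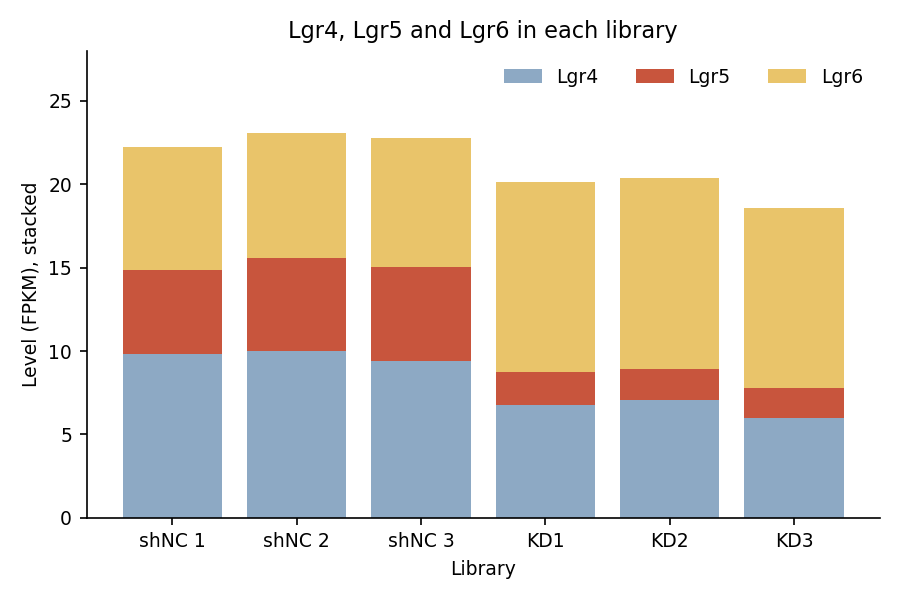
Stacked levels in FPKM of the R-spondin receptor genes Lgr4, Lgr5 and Lgr6 in each of the 6 libraries. The total is 18.6 to 23.1 FPKM, and the Lgr6 part grows from 33.2% in shNC to 57.0% in shERO1A on average.

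Of the ubiquitin ligases that R-spondins restrain, Rnf43 passed and Znrf3 did not. Rnf43 (Entrez 207742) ran at 17.8, 18.0 and 17.6 FPKM in control cells, while KD1 to KD3 read 15.7, 15.3 and 12.5 FPKM. The groups did not overlap, and KD3 lay well below the other knockdown libraries. The mean fell from 17.8 ± 0.236 to 14.5 ± 1.75 FPKM (log2 fold change -0.28, SE 0.08, limma adjusted p = 0.0493). This call was narrow: it was lost when shNC replicate 1, 2 or 3 was dropped (adjusted p of 0.139, 0.153 and 0.134), without KD2 (0.07), with a pseudocount of 0.1 (0.0509), with the filter on reads (0.0615) and with no filter (0.0873), spanning 0.00647, the q of the authors' deposited table, to 0.153 across the alternatives. Znrf3 overlapped between the groups at 4.06 ± 0.0513 and 3.93 ± 0.420 FPKM (log2 fold change -0.04, 95% interval -0.21 to 0.13, adjusted p = 0.749).

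A list of other ligand modulators held 9 tested genes, of which 1 rose and 1 fell (22.2%, against 17.7% of all tested genes; median log2 fold change 0.12, against 0.01). Tpbg, a membrane glycoprotein that restrains canonical Wnt signalling, rose from 7.23 ± 0.527 to 12.7 ± 0.789 FPKM (SD, n = 3; limma adjusted p = 0.000384). Sulf2, a sulfatase of heparan sulfate, which holds Wnt ligands at the cell surface, fell to 0.274 of control (adjusted p = 6.21e-06). Rspo3, an R-spondin and so a ligand of the LGR receptors, was under 1 FPKM and is named after its values were seen: it had 44, 42 and 29 control reads against 0, 7 and 6 across KD1 to KD3. Its level was 0.415 ± 0.0874 FPKM in shNC and 0.0464 ± 0.0407 FPKM in shERO1A, a ratio of 0.112. With the filter on reads it fell (log2 fold change -0.43 on the log2(FPKM + 1) scale, limma adjusted p = 0.00376). Draxin, a secreted antagonist also named after its values were seen, had 27, 18 and 16 control reads against 70, 116 and 105 across KD1 to KD3 (adjusted p = 0.00646 in the same fit).

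The cytoplasmic core of the pathway held 1 call among 9 tested genes, where 17.7% of all tested genes were called. Ctnnb1, which encodes beta-catenin and was the highest of the 47 genes, measured 285, 284 and 279 FPKM across the controls against 278, 279 and 279 FPKM across KD1 to KD3, with the nearest libraries alike to 3 digits (log2 fold change -0.02, 95% interval -0.12 to 0.08, limma adjusted p = 0.767). These are transcript levels; beta-catenin is regulated mainly through its protein, which was not measured. Axin1, the constitutive scaffold of the destruction complex, had control values of 17.6, 18.1 and 17.7 FPKM and knockdown values of 17.4, 17.5 and 17.8 FPKM, with overlap (95% interval -0.12 to 0.08, adjusted p = 0.791). Apc, its partner, was at 8.84 ± 0.422 and 8.71 ± 0.892 FPKM (95% interval -0.20 to 0.15, adjusted p = 0.868). The kinase gene Gsk3b was at 11.1 ± 0.373 and 12.1 ± 0.827 FPKM (95% interval -0.03 to 0.26, adjusted p = 0.249), and passed without KD3 (log2 fold change 0.17, adjusted p = 0.0307, spanning 0.0307 to 0.503 across the alternatives).

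Axin2 (Entrez 12006), the inducible scaffold and the usual readout of beta-catenin activity, was the cytoplasmic component that passed. It gave 22.1, 22.8 and 23.4 FPKM with shNC, compared with 20.7, 19.7 and 17.8 FPKM with the knockdown hairpin. All knockdown libraries were lower than all control libraries, and KD3 was the lowest. On average it fell to 19.4 ± 1.45 FPKM from 22.7 ± 0.667 FPKM (SD, n = 3), or 0.854 of control (log2 fold change -0.22, SE 0.06, limma adjusted p = 0.0443). Its call was lost when shNC replicate 1, 2 or 3 was dropped (adjusted p of 0.0996, 0.138 and 0.16), without KD2 (0.0941), with the filter on reads (0.0513) and with no filter (0.0675), spanning 0.00809, the q of the authors' deposited table, to 0.16 across the alternatives.

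Dishevelled genes relay the signal from Frizzled, and Nkd1 is a feedback inhibitor that binds Dishevelled. Dvl1, the most abundant Dishevelled gene, ran at 35.5, 35.6 and 33.6 FPKM in control cells, while KD1 to KD3 read 33.1, 34.1 and 28.6 FPKM, with overlap (limma adjusted p = 0.255). Dvl2 and Dvl3 also overlapped between the groups, at 10.4 ± 0.802 and 9.66 ± 0.417 FPKM and at 13.9 ± 0.579 and 12.3 ± 2.02 FPKM. KD3 was the lowest of the 6 libraries in each of the 3 Dishevelled genes. Nkd1 was at 4.02 ± 0.698 and 4.17 ± 0.401 FPKM (95% interval -0.21 to 0.31 for the log2 fold change, adjusted p = 0.786).

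Of the TCF/LEF factors, the 2 with higher levels in shNC did not pass, and Lef1 was higher in every knockdown library. Tcf7 measured 3.04, 2.92 and 3.06 FPKM across the controls against 3.13, 3.07 and 2.80 FPKM across KD1 to KD3 (95% interval of the log2 fold change -0.15 to 0.15, limma adjusted p = 0.979). Tcf7l2, the main factor of intestinal epithelium, had control values of 4.12, 4.74 and 4.48 FPKM and knockdown values of 4.56, 3.70 and 3.05 FPKM, with overlap (adjusted p = 0.270). Lef1 (Entrez 16842), itself a Wnt target, gave 0.527, 0.397 and 0.481 FPKM with shNC, compared with 1.18, 1.43 and 1.17 FPKM with the knockdown hairpin, from 93, 69 and 84 reads and from 205, 249 and 210 reads. The lowest knockdown value was more than the highest control value. The mean went from 0.468 ± 0.0660 to 1.26 ± 0.148 FPKM, a ratio of 2.68. Lef1 had a mean under 1 FPKM over the 6 libraries and so was not in the main test; with the filter on reads it rose (log2 fold change 0.62 on the log2(FPKM + 1) scale, SE 0.07, limma adjusted p = 0.00143, and 0.00111 to 0.00332 in the other fits), and with voom on those reads the log2 fold change was 1.41. Lef1 supplied 5.92 ± 0.973% of the summed TCF/LEF level in shNC and 15.8 ± 2.21% in shERO1A, and Tcf7l1 had 0 to 6 reads per library.

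**Figure D4:**
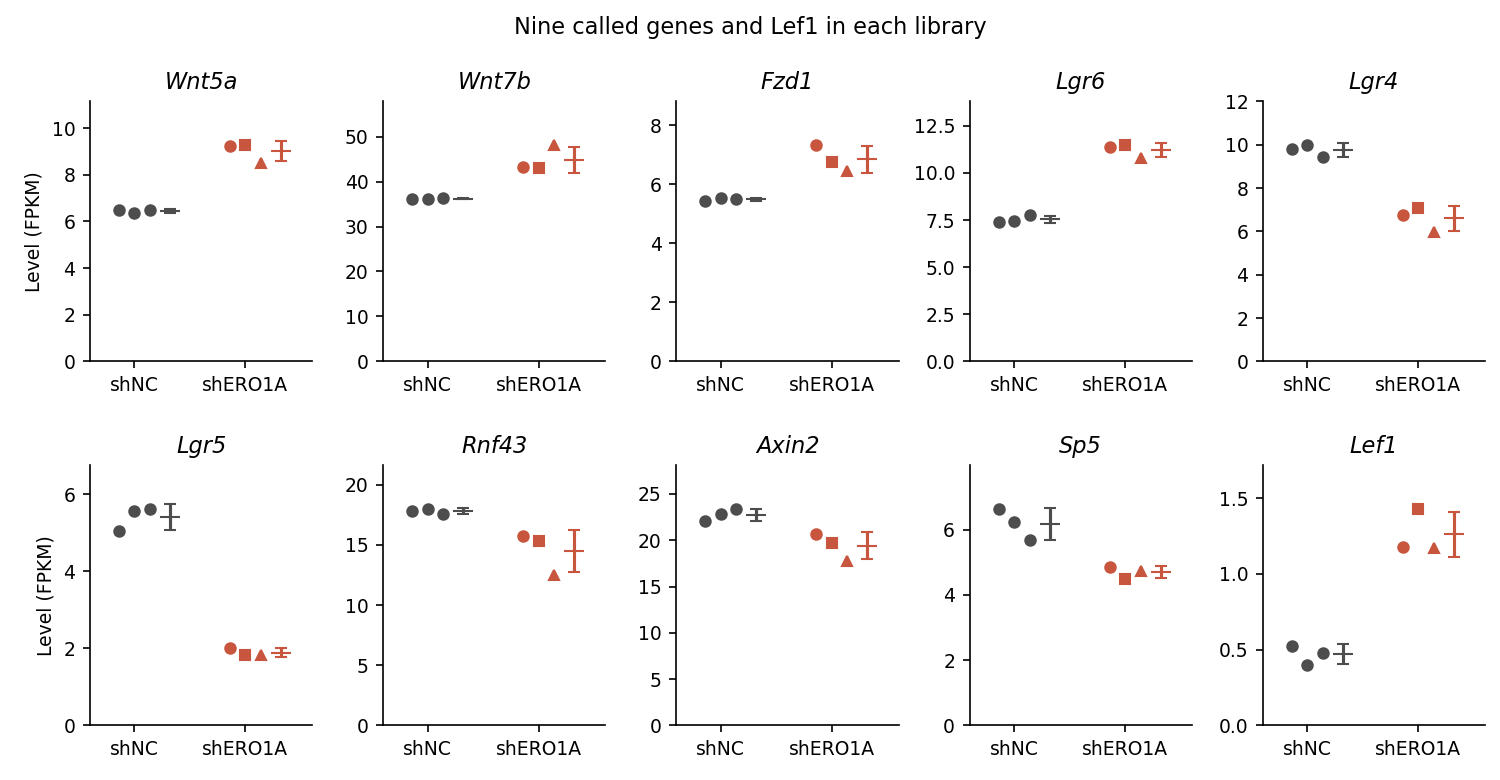
Level in FPKM of the 9 called genes and Lef1 in each library, on linear axes from 0; bars give the mean and SD of 3 libraries, and the red circle, square and triangle are KD1, KD2 and KD3. In all 10 genes the shNC and shERO1A libraries do not overlap, as in 40.0% of all tested genes. The 9 are shown because they were called, so their lack of overlap is no separate support.

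Among the target genes of the set, Sp5 fell. Sp5 (Entrez 64406), a zinc finger factor induced by beta-catenin, whose promoter window holds the CTTTGAT match in capitals, ran at 6.64, 6.24 and 5.67 FPKM in control cells, while KD1 to KD3 read 4.86, 4.49 and 4.74 FPKM. Each knockdown library was below each control library. On average it fell to 4.70 ± 0.187 FPKM from 6.18 ± 0.487 FPKM (SD, n = 3; log2 fold change -0.33, SE 0.07, limma adjusted p = 0.0140), and the call was lost when shNC replicate 1 (adjusted p of 0.062), shNC replicate 2 (0.0634) or KD2 (0.0547) was dropped, spanning 0.00956 to 0.0634 across the alternatives. Myc measured 47.9, 47.1 and 47.6 FPKM across the controls against 53.4, 56.1 and 49.9 FPKM across KD1 to KD3. These were all above the controls, but the difference did not pass (log2 fold change 0.16, 95% interval 0.04 to 0.27, adjusted p = 0.0756); without KD3 it did (log2 fold change 0.20, adjusted p = 0.00288, spanning 0.00288 to 0.219 across the alternatives). Ascl2, a factor of intestinal stem cells, had 18, 14 and 7 control reads against 6, 1 and 1 across KD1 to KD3.

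Marker genes of intestinal epithelium and of hepatocytes also differed between the groups. Of 19 intestinal markers, 15 had values and 10 were tested, of which 6 fell, Lgr5 and Krt8 among them, and 0 rose (8.23% and 9.48% over all tested genes). Without KD3, 7 fell and 1 rose (13.0% and 14.7% over all tested genes in that run). Of 13 tested markers of hepatocytes and hepatoma, 4 fell (Trf, Hnf4a, Krt8 and Rbp4) and 1, Apoh, rose. The median log2 fold change was -0.60 for the intestinal list and -0.23 for the hepatocyte list. The summed level of the 15 intestinal markers was 3180 to 3240 FPKM in shNC and 2530 to 2760 FPKM in shERO1A. Most of it came from 2 keratins that are in the hepatocyte list as well. Krt8 was at 1260 ± 22.8 FPKM in shNC and 995 ± 49.1 FPKM in shERO1A, and Krt18 at 1180 ± 12.5 and 1040 ± 50.1 FPKM. Krt19 fell from 257 ± 1.95 to 116 ± 3.39 FPKM and the homeobox gene Cdx2 from 4.60 ± 0.536 to 2.42 ± 0.201 FPKM (limma adjusted p = 7.67e-06 and 0.00151), while Cdh17 did not pass (228 ± 5.62 FPKM in shERO1A). Muc2 and Muc13 were listed at 0 in at least 1 library. Of markers of other cells, 8 of 9 fibroblast and stellate markers, 4 of 6 endothelial and 4 of 5 immune markers with values had means under 1 FPKM. The fibroblast list summed to 2480 to 2550 FPKM in shNC and 2120 to 2210 FPKM in shERO1A, nearly all of it Vim, and Des was at 0 in a library. The endothelial list summed to 16.4 to 17.6 and 24.0 to 25.7 FPKM. Most of that came from Cdh5, VE-cadherin, which rose to 18.3 ± 0.512 from 10.1 ± 0.448 FPKM (limma adjusted p = 7.66e-05), and Flt1 at 6.40 ± 0.191 and 6.21 ± 0.586 FPKM, while Pecam1 was at most at 0.151 FPKM. The immune list summed to 2.45 to 2.77 and 2.18 to 3.32 FPKM, with Ptprc at 0 in a library. The part of these markers in the changes of Wnt genes was not tested.

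The wider pathway was described through lists of genes outside the 47, chosen with earlier results of these data known. Their shares of called genes are a description and not a test. Of 30 tested genes of the destruction complex and its kinases, 2 rose, 1 fell and 27 did not pass. This was 10% called, against 17.7% of all tested genes, with a median log2 fold change of 0.04. Csnk1e and Csnk1g3, casein kinase genes, rose 1.19-fold and 1.16-fold, and the deubiquitinase gene Cyld fell to 0.780 of control (limma adjusted p = 0.00667, 0.0143 and 0.00678). Csnk1g3 was not called when any single shNC replicate was dropped (adjusted p up to 0.0782). Without KD3 7 genes of the list rose and 2 fell, where 14.7% of all tested genes rose and 13.0% fell. Of 30 tested nuclear cofactors and junction partners of beta-catenin, 5 rose and 3 fell (26.7%, against 17.7% of all tested genes; median 0.02). In all, 3 of this list were called when shNC replicate 1, 2 or 3 was left out. Cdh1, E-cadherin, which binds beta-catenin at junctions, fell from 206 ± 1.36 to 149 ± 6.45 FPKM, and its junction partner Jup, plakoglobin, from 40.2 ± 1.31 to 28.7 ± 1.81 FPKM. Sox4 rose from 45.8 ± 1.25 to 61.2 ± 0.482 FPKM, the corepressor gene Ctbp2 rose 1.24-fold, and the co-activator gene Bcl9l fell to 0.707 of control. Bcl9l and Ctbp2 lost their calls whichever shNC replicate was left out, with limma adjusted p up to 0.064 and 0.0775.

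Of 22 tested genes of the beta-catenin-independent branches, 3 rose and 1 fell (18.2%, near the 17.7% of all tested genes). The median log2 fold change was -0.03. Ppp3ca, the catalytic subunit of calcineurin, rose from 5.96 ± 0.121 to 8.37 ± 0.160 FPKM (limma adjusted p = 0.00116). Mapk8 (JNK1) and Nfatc1 rose 1.17-fold and 1.16-fold, and Camk2d fell to 0.875 of control, with adjusted p between 0.0377 and 0.0486. Of these 4, Ppp3ca stayed called without each single shNC replicate and without KD2; for Mapk8, Nfatc1 and Camk2d the adjusted p then reached 0.166, 0.171 and 0.142.

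**Figure D5:**
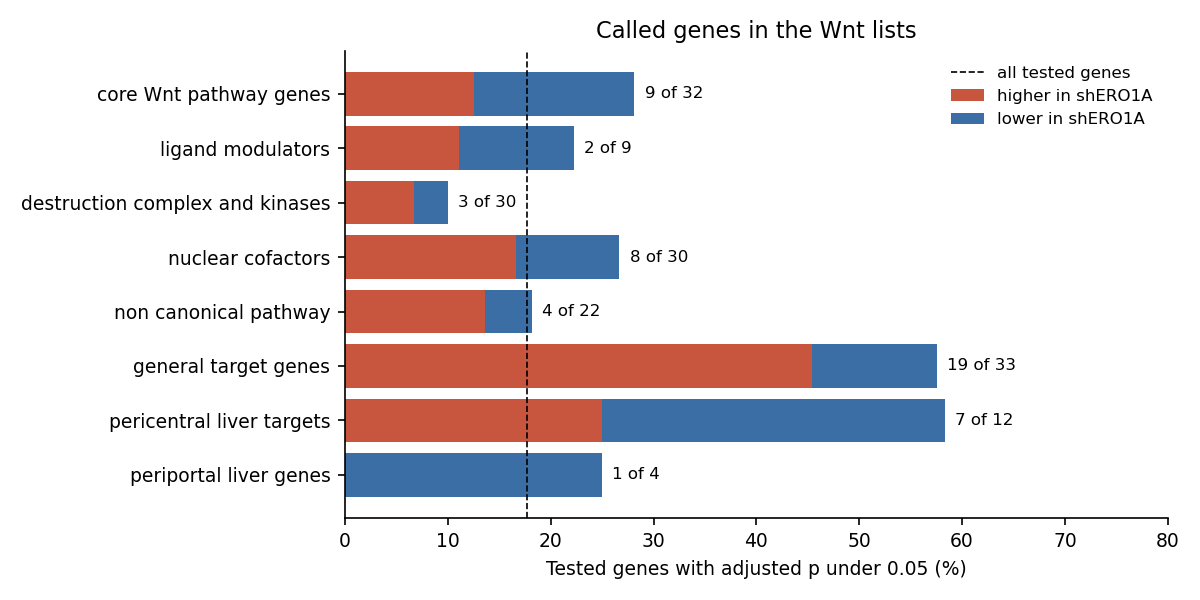
Share of tested genes called at an adjusted p under 0.05 in the 32 core Wnt genes and in 7 lists of related genes, split into higher (red) and lower (blue) in shERO1A; the dashed line is the 17.7% over all tested genes. The general target list reaches 57.6% and the destruction complex list 10%. The genes of each bar were chosen with earlier results of these data known, so the shares are descriptive.

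Genes known as Wnt targets in various tissues, but controlled by other pathways as well, formed a list with 33 tested genes. Of these, 15 rose, 4 fell and 14 did not pass (57.6% called; over all tested genes 9.48% rose and 8.23% fell), with a median log2 fold change of 0.18. Without KD3, 16 rose and 8 fell (14.7% and 13.0% over all tested genes in that run). Smoc2, a matricellular protein of intestinal stem cells, rose from 1.16 ± 0.151 to 3.86 ± 0.468 FPKM (limma adjusted p = 0.000197). Abcb1a, a drug efflux pump, rose from 13.8 ± 0.382 to 26.8 ± 0.523 FPKM, Efnb1, an ephrin ligand, from 13.5 ± 0.129 to 25.3 ± 1.46 FPKM, the Notch ligand Jag1 from 17.5 ± 0.233 to 30.9 ± 2.12 FPKM and Jun from 7.07 ± 0.434 to 12.8 ± 1.11 FPKM. The 4 that fell, named after their values were seen, were Cdx2, Fgf18 (4.83 ± 0.121 to 2.89 ± 0.209 FPKM), Abcb1b (to 0.806 of control) and Slc9a3r1 (to 0.867). Slc9a3r1 kept its call only without KD3 among the runs that left out 1 library (limma adjusted p up to 0.138). Abcb1a and Abcb1b are close copies, so reads may be split between them. Ccnd1, the cyclin most often cited as a target and also named after its values were seen, stood at 377, 380 and 386 FPKM in control libraries and at 338, 343 and 358 FPKM in KD1 to KD3, without overlap. It did not pass (adjusted p = 0.0900) but was called lower without KD3 (limma adjusted p = 0.00168, up to 0.292 across the alternatives), with voom and by the q of the authors' deposited table.

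In the pericentral programme of hepatocytes, 12 genes were tested, of which 3 rose and 4 fell (58.3%, against 17.7% of all tested genes). The median log2 fold change was -0.06. Glul, glutamine synthetase and the classical pericentral marker, rose from 24.4 ± 0.343 to 33.7 ± 1.03 FPKM (adjusted p = 0.000457, limma), and Tbx3, also in the general target list, and Blvrb rose 1.41-fold and 1.36-fold. Lect2 fell from 12.7 ± 1.51 to 7.30 ± 1.78 FPKM and Rnase4 from 8.32 ± 0.372 to 5.12 ± 0.677 FPKM (adjusted p = 0.0120 and 0.00237). Lect2, Tbx3 and Blvrb lost their calls without shNC replicate 1 or 2, and Tbx3 and Blvrb also without shNC replicate 3 or KD2, Tbx3 also without KD1 and both with no filter (limma adjusted p up to 0.0582, 0.119 and 0.108), and the list held 3 calls without shNC replicate 1 or 2 and 4 without shNC replicate 3 or KD2. Of 4 tested periportal genes, 1, Cdh1, was called.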

How the data were processed

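Reads came from total RNA extracted with TRIzol, per the labels' protocols. The submitters' processing notes name HISAT2 2.1.0, HTSeq 0.11.2 and mm39. Neither annotation nor strand setting is stated, so overlapping antisense genes cannot be told apart. The authors deposited FPKM per library (unit identified from the values), base means as a signal from DESeq2 (version not given), a fold change as a ratio and as log2, and p-values and q-values, per the file headers and values. Reads were recovered from FPKM and base means: 100% of 97302 values fell within 0.01 of a whole number. The lowest base mean is 1.14, and rarer genes were not analysed here. Columns KD1 to KD3 name the knockdown group and no sample title. R 4.3.3 and limma 3.58.1, with its trend option, were used on log2(FPKM + 1) of genes averaging 1 FPKM or more. The steps were tested on simulated data. The design allowed for raw counts; the FPKM test named there was used. Spread between libraries, on which every p-value rests, may be technical. Members and lists were chosen with earlier results of these data known. Genes named are every called member, fixed core members, and up to 5 called genes of each list with the largest change; others are marked. Alternatives were another pseudocount, other filters, median centring, voom (limma) with TMM factors, the authors' q and leaving out each library; voom on the filter on reads and that filter without KD3 were chosen after seeing the data. Promoter sequences are from RefSeq, GRCm38.p6, whose coordinates were not mixed with mm39.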

Additional observations from a re-analysis of the deposited data

How the results depend on the processing

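No paired analysis was possible because the knockdown columns carry no sample title, so the replicate block was not run. Over the 32 tested Wnt genes and their alternatives, 405 values kept their direction and side of the threshold, 11 gained a call, 21 lost it and 11 changed sign. The sign changed in uncalled genes near 0 only, when libraries were left out: Apc ranged from -0.09 to 0.04, Fzd7 from -0.11 to 0.04, Nkd1 from -0.06 to 0.14 and Tcf7 from -0.03 to 0.03 on the log2 scale, and with the filter on reads and without KD3 Apc was at 0.04 and Tcf7 at 0.03. Leaving out single libraries gave 3 to 7 Wnt genes called higher and 2 to 6 called lower, and over all genes 488 to 1515 called higher and 458 to 1341 called lower. On the same runs the lists held 2 to 9 calls for the destruction complex, 3 to 11 for nuclear cofactors, 1 to 6 for the beta-catenin-independent branches and 3 to 8 for the pericentral genes. With the filter on reads and without KD3, 8 Wnt genes were called higher, 1488 of all genes higher and 1329 lower, 4 ligand modulators were called against 2 as reported, and 9 genes of the destruction complex against 3. Ligand modulators also numbered 4 with no filter, with the filter on reads and with voom on those reads. The destruction complex list held 5 calls by the authors' deposited q, and the beta-catenin-independent list 2 in place of 4 with no filter, with the filter on reads and with median-centred libraries. The balance of all calls turned from more higher (976 against 847 lower) to more lower when libraries were centred at their median (861 and 913) and with voom (921 and 1037), and that of the Wnt genes from 4 higher and 5 lower to 5 and 4 with the filter on reads. The causes were not tested. Averaging under 10 reads per library, 9 of the 47 genes were in no test but those with no filter.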
